A study of Mus musculus with 8 samples.

Results

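The sites described here are 976 cytosine positions that were highly methylated in lung metastases marked MFP and clearly lower in lung metastases marked TVI, of 136069 positions measured in the 4T1 mouse mammary tumor model. They were chosen from the values themselves. A site was taken when its mean over the 3 MFP metastases was at least 80% and when the highest of the 3 TVI values lay at least 20 percentage points below the lowest of the 3 MFP values. They make up 0.717% of all sites, and 1.16% of the 84310 sites whose mean in the MFP metastases was at least 80% (here called highly methylated sites). Because the rule used every MFP and TVI value, the difference between those groups is given as a description, and no test of it is read as a result. The primary tumors, the positions of the sites and their surroundings were outside the rule.

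4T1 is an established mammary carcinoma cell line of BALB/c mice that forms tumors after transplantation and seeds the lung. Bisulfite sequencing was applied to genomic DNA of 8 samples, all of 4T1 cells in the BALB/c strain. The mark MFP is carried by 2 primary tumors and by 3 metastases taken from the lung, and the mark TVI by the 3 other lung metastases. The titles give MFP and TVI without spelling them out, and no further treatment, genotype, age or number of animals per sample is given in the labels. No label says whether the samples within a group are separate animals. A p-value here therefore reflects only how these samples vary, which may be technical variation. Each value is the fraction of calls at a site that were methylated, printed here as a percent. The table holds no read counts, so the depth behind a value is unknown and no counting interval was computed.

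Cytosine methylation in mammals sits mostly at CG dinucleotides (CpG). Most of the genome is methylated, whereas CpG-dense stretches at the starts of many genes, called CpG islands, usually are not, and the flanks of these islands, called shores, pass from one state to the other. In tumors the methylation of islands and shores often differs from that of the tissue of origin, and loss of methylation can follow from incomplete copying at cell division or from active oxidation.

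Starts of 302 of 26794 genes could be placed in the deposited numbering. Among these, the 3 gene starts whose immediate upstream sequence held most of these sites are shown first, since there the sites can be seen in their sequence. The stretches are the 250 bases before the annotated start in the RefSeq promoter table (build GRCm38.p6), written 5′ to 3′ on the gene's strand, and capitals mark the CpG of each site that is a member. Rasgrp2 encodes an exchange factor that activates the small GTPase Rap1 in platelets. Cldn7 encodes claudin-7, a membrane protein of tight junctions in epithelia. Creld1 encodes a membrane protein with EGF-like repeats.
Rasgrp2 (chr19:6401455-6401704, + strand): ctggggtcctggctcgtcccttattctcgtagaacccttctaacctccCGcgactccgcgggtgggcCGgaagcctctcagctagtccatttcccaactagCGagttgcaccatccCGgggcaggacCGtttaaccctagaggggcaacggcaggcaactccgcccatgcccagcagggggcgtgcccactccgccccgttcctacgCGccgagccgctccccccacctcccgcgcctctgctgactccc
Cldn7 (chr11:69965171-69965420, + strand): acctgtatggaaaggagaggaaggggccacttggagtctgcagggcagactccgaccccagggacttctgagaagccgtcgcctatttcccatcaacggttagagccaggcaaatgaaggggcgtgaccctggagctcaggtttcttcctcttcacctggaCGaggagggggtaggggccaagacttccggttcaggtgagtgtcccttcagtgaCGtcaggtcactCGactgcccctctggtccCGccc
Creld1 (chr6:113483106-113483355, + strand): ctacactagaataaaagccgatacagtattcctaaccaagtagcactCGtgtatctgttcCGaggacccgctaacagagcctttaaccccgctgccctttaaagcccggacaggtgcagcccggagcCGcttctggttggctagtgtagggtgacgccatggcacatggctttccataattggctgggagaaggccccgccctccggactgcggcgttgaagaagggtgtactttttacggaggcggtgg
The Rasgrp2 stretch held 21 CpG and 6 members, from 202 to 43 bp before the start. The Cldn7 stretch held 10 CpG and 4 members, which lay in its last 89 bp, and the Creld1 stretch held 15 CpG and 3 members. The median over the 32619 promoter stretches of the table was 6 CpG. A start was placed only with at least 5 measured sites on CpG of its 300-base window. Higher CpG counts at placed starts therefore follow partly from the placing. The motif GGGCGG, searched on both strands, occurred 2 times in the Rasgrp2 stretch and 1 time each in the Cldn7 and Creld1 stretches. It was present in 33.0% of all promoter stretches of that length, and a match describes only the letters. These coordinates are RefSeq's. The deposited numbering placed the Rasgrp2 start at the same position, whereas the Cldn7 and Creld1 starts lay elsewhere in it. All other positions below are as deposited, on a build that could not be settled, and gene names rest on matching the spacing of deposited sites to the CpG spacing of RefSeq promoters.

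Across the 976 sites, the tumors and the MFP metastases were nearly fully methylated, and the TVI metastases were at intermediate levels. The median over the sites was 90.5% and 89.5% in the 2 tumors and 91.6%, 91.8% and 91.7% in the 3 MFP metastases. In TVI metastases 1, 2 and 3 it was 56.4%, 48.2% and 51.4%. Over all highly methylated sites the medians were 94.6% and 94.5% in the tumors, 94.8% to 95% in the MFP metastases and 95.1% to 95.2% in the TVI metastases. The distance of the members from these medians in TVI metastases follows from the rule. The mean over the 3 MFP metastases exceeded the mean over the 3 TVI metastases by a median of 37.4 points, with a range of 21.5 to 87.6 points.

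**Figure D1:**
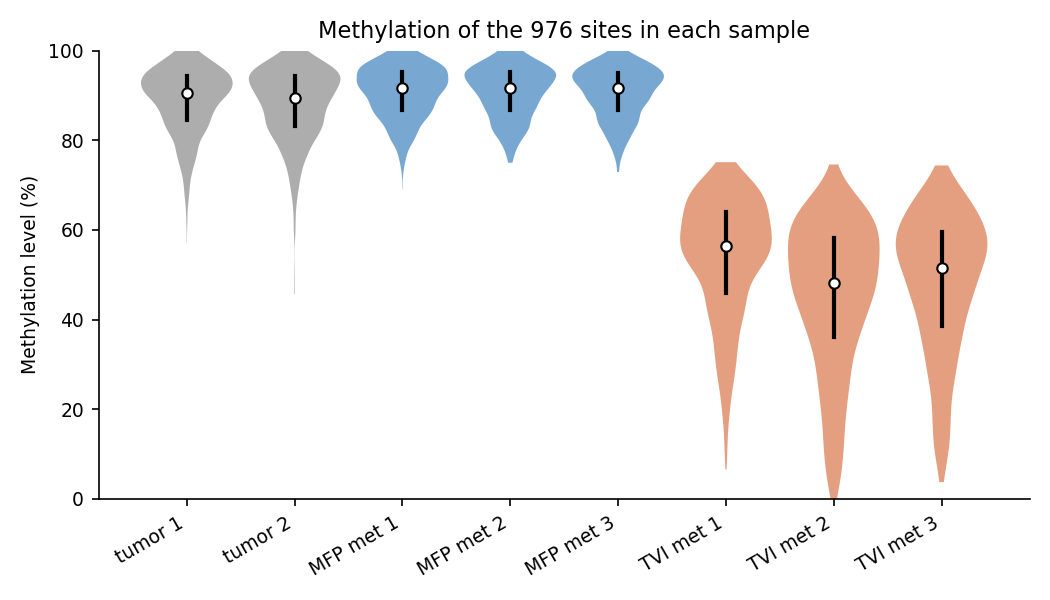
Methylation level (percent, vertical axis) of the 976 member sites in each of the 8 samples (horizontal axis). Shapes show the distribution over sites, white points the median and black bars the quartiles. The 2 tumors and 3 MFP metastases have medians from 89.5% to 91.8%, and the 3 TVI metastases from 48.2% to 56.4%.

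Most members kept part of their methylation in the TVI metastases. The TVI mean lay between 35% and 65% at 696 sites (71.3%), between 20% and 35% at 122 (12.5%), between 65% and 80% at 104 (10.7%) and at or under 20% at 54 (5.53%). The lowest TVI mean was 4.48% and the highest was 73.4%. The upper end is set by the rule, and the share at 35% to 65% depends on it: it was 29.1% of the sites when a gap of 40 points was required. The sites at or under 20% lay in 13 places, and 24 of the 54 were in a single run of sites on chromosome 1 next to Fzd7.

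At the members the spread between replicates was wider in the TVI group, whose levels there were intermediate. Whether the spread follows from the level was not tested. The median SD over the members was 5.39 points in TVI metastases, 2.31 in MFP metastases and 2.36 in tumors, against 1.71, 1.89 and 1.61 over all highly methylated sites. TVI metastasis 1 had the highest of the 3 TVI values at 727 of the 976 sites, and TVI metastasis 2 had the lowest at 625. In the MFP group no sample led in this way: the lowest value fell to replicates 1, 2 and 3 at 319, 320 and 337 sites, ties included. Whether an intermediate level stands for a mixture of methylated and unmethylated cells cannot be read from fractions per site.

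The difference was also read with 1 replicate of each metastasis group set aside while sites were chosen. No label says that replicates are separate animals, so this describes only how alike the samples of a group were. With replicate 1 of both metastasis groups set aside, the same rule on the 4 remaining metastases chose 1360 sites. In the samples set aside the MFP value was above the TVI value at 1358 of these, by a median of 28.5 points, and by at least 20 points at 79.9%. With replicate 2 set aside, 1093 sites were chosen, with a median difference of 39.4 points in replicate 2 and at least 20 points at 95.7%. With replicate 3 set aside, the 1114 sites chosen had a median difference of 37.2 points in replicate 3, and 94.3% reached 20 points. Among all highly methylated sites 1.65% to 2.33% reached 20 points in the same samples. Of the 1360, 1093 and 1114 chosen sites, 951, 948 and 961 were also among the 976 members. TVI metastasis 1 was also the TVI sample with the highest levels at most members.

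At the edges of the rule, members and excluded sites had much the same values. The sites just inside the gap, on chromosome 3 at 97951544 and on chromosome 17 at 28390310, had a gap of 20 points, and their TVI means were 52.2% and 58.2%. The next, on chromosome 15 at 77646407, had a TVI mean of 63.0%. Just outside lay chromosome 5 at 116296301, chromosome 6 at 113433222 and chromosome 8 at 11759480, with TVI means of 61.9%, 61.7% and 72.3%. At the limit on the mean, the members on chromosome 8 at 121814097 and chromosome 11 at 68200078 and 115858582 had MFP means of 80.01%, 80.05% and 80.10%. The sites just below were on chromosome 1 at 59540636 (TVI mean 8.11%), on chromosome 8 at 120868677 and on chromosome 11 at 103611439. The first of these lies inside the run next to Fzd7.

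The primary tumors, which were not used by the rule, were closer to the MFP than to the TVI metastases at nearly all of these sites. Both tumors were above all 3 TVI values at 976 of 976 members, where 12.7% of all sites showed the same order. This order is partly built in, because the members have low TVI values by choice. Both tumors lay at least 20 points above the highest TVI value at 829 members (84.9%) and at 0.109% of the other highly methylated sites, and here too the choice of low TVI values enters. The tumor mean was nearer to the TVI mean than to the MFP mean at 7 members (0.717%) and at 58.1% of the other highly methylated sites, where the groups differ little. Both tumors were at least 80% methylated at 777 members (79.6%), a smaller share than the 95.2% of the other highly methylated sites.

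Between tumors and MFP metastases the differences were small. The tumor mean minus the MFP mean had a median of -1.59 points over the members and of -0.41 points over all highly methylated sites, and ranged from -26.9 to 9.10 points. It was within 5 points at 756 members (77.5%), compared with 92.0% of the other highly methylated sites. Both tumors were below all 3 MFP values at 225 members (23.1%), where 14.5% of all sites and 14.6% of the other highly methylated sites showed that order. Both were above all 3 MFP values at 51 members (5.23%), where 8.11% of all sites did. The members were chosen partly for high MFP values, and the part of that choice in the order of tumors and MFP metastases was not tested.

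**Figure D2:**
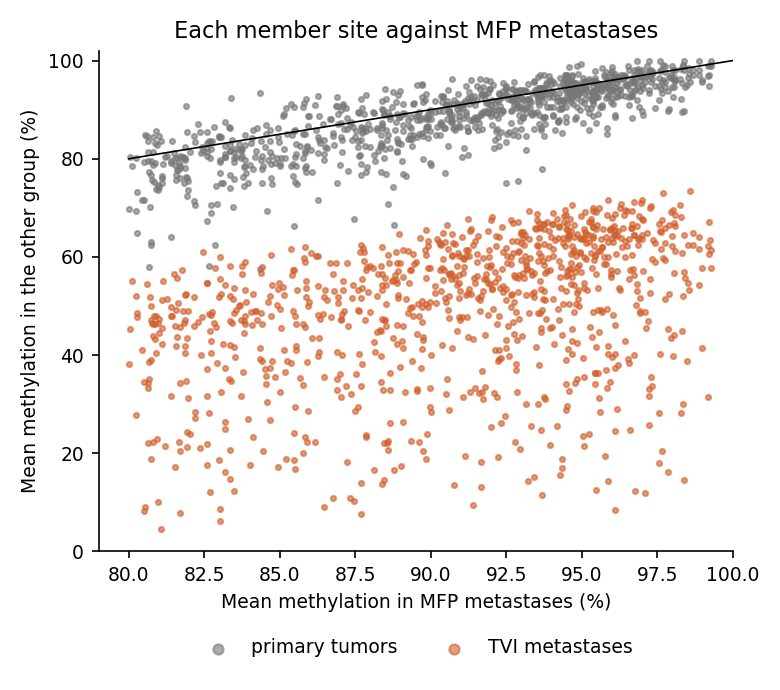
Mean methylation of each of the 976 member sites (1 point per site) in the 2 primary tumors (grey) and the 3 TVI metastases (orange), in percent on the vertical axis, against the mean in the 3 MFP metastases (percent, horizontal axis). The line marks equal values. The grey points lie close to the line, with a median difference of -1.59 points, and the orange points lie below it by a median of 37.4 points.

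In a limma model over all 8 samples, with Benjamini-Hochberg adjustment over 135914 sites with any variation and a threshold of 0.05, 0 of the 976 members were called between MFP metastases and tumors. The background was 0.0427% of all sites called higher and 0.00368% called lower in MFP metastases, that is 58 and 5 sites. At an unadjusted p under 0.05, 41 members were counted, all 41 higher in the MFP metastases, where 8.66% of all sites were counted in either direction. The model estimates the spread at a site from all groups, and at the members the TVI metastases had the widest median SD. With only the 2 groups compared, 125 members were counted, 116 higher and 9 lower, beside 10382 of 135444 sites. After quantile normalization 24 members were counted, beside 9828 of 135914 sites. On the logit2 scale 180 members were counted, 153 higher and 27 lower, beside 10510 of 135724 sites. Members were thus counted less often than all sites in some fits and more often in others. With no variance trend 2 members were called after adjustment, beside 155 of 135914 sites. With only sites of an SD of at least 2 points 6 were called, beside 563 of 82920 sites. The limma contrast of TVI metastases with tumors called 969 members lower in TVI and 0 higher, where 5.24% of all sites were called lower and 11.4% higher. The contrast of TVI with MFP metastases, whose outcome at the members the rule fixed, called all 976 lower, beside 6.53% of all sites lower and 10.4% higher. The rule used that contrast and the TVI values, so nothing is read from these counts.

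At the 5 members with the lowest tumor mean, both tumors lay between the MFP and the TVI values. These sites were picked for low tumor values, so tumors below the MFP values follow largely from the choice. The lowest was on chromosome 15 at 77646574. The tumors were at 67.1% and 47.8%, the MFP metastases at 81.0%, 85.1% and 87.0%, and the TVI metastases at 43.8%, 36.9% and 37.1%. Tumor 2 there was closer to the TVI values than tumor 1, and the tumors overlapped neither metastasis group. The site on chromosome 11 at 78896992 had tumor values of 70.4% and 45.6%, MFP values of 79.6% to 81.7% and TVI values of 36.4% to 40.7%. On chromosome 2 at 173073185 both tumors agreed, with 57.1% and 59.1% between MFP values of 80.3% to 86.8% and TVI values of 18.3% to 33.9%. The others were on chromosome 15 at 85373498 (tumor mean 62.5%) and on chromosome 10 at 59413141 (tumor mean 62.4%), 1378 bp after the placed start of Ddit4, a stress-induced inhibitor of mTORC1 signaling.

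The members were not spread evenly but lay in groups. Another member lay within 250 bp of 611 of them (62.6%), whereas 3.54% of highly methylated sites had a member that near. Joined when at most 500 bp apart, they formed 450 runs: 324 of a single member, 63 of a pair, 47 of 3 to 9 and 16 of 10 or more. The 16 largest held 301 members (30.8%), and the 10 largest 237 (24.3%). Sites this close can be read from the same DNA fragments, so they are not independent observations.

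Measured sites were also denser around the members. The count covers measured sites only, not every CpG of the sequence. Members had a median of 11 other measured sites within 250 bp, against 8 for all highly methylated sites. Of the highly methylated sites with 0 to 4 such neighbors, 0.827% were members, and of those with 5 to 9, 0.884%. The share was 1.27% at 10 to 19, 3.50% at 20 to 29 and 4.20% at 30 or more. The runs with most members contribute to this, since members in the 10 largest runs had a median density of 17 and those outside them of 9.

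Members in the 10 largest runs also had lower TVI levels than the rest. Their median was 45.0% in TVI metastases, 94.5% in MFP metastases and 93.7% in tumors. Outside these runs the medians were 53.4%, 90.9% and 88.8%, and for members with no other within 500 bp the TVI median was 55.4%. Of the 54 members at or under 20% in TVI metastases, 41 were in the 10 largest runs. The level between 35% and 65% was the most frequent state of single members, at 82.1% of the 324, and was less frequent in the largest runs, at 52.3%.

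The difference reached sites near the members that the rule had not chosen. Among 506 other sites 1 to 25 bp from a member, the TVI mean minus the MFP mean had a median of -18.9 points, and 88.3% were lower in TVI metastases. The median was -6.80 points at 26 to 50 bp, -1.80 at 51 to 100 bp and -0.859 at 101 to 250 bp. Beyond 250 bp it was within 1 point of 0, and beyond 1000 bp it was 0.449, with 41.3% of sites lower. A part of the sites further out still differed. All 3 TVI values were below all 3 MFP values at 31.0% of sites at 101 to 250 bp and 19.9% at 251 to 500 bp. That share was 14.6% at 501 to 1000 bp and 8.77% beyond 1000 bp. Among neighbors that were themselves at least 80% methylated in MFP metastases, the medians were -15.5 points at 1 to 25 bp and -2.57 points at 26 to 50 bp. Part of the nearest neighbors missed the rule only narrowly, and the distances are from the nearest member, so the fall with distance describes the edges of the runs.

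**Figure D3:**
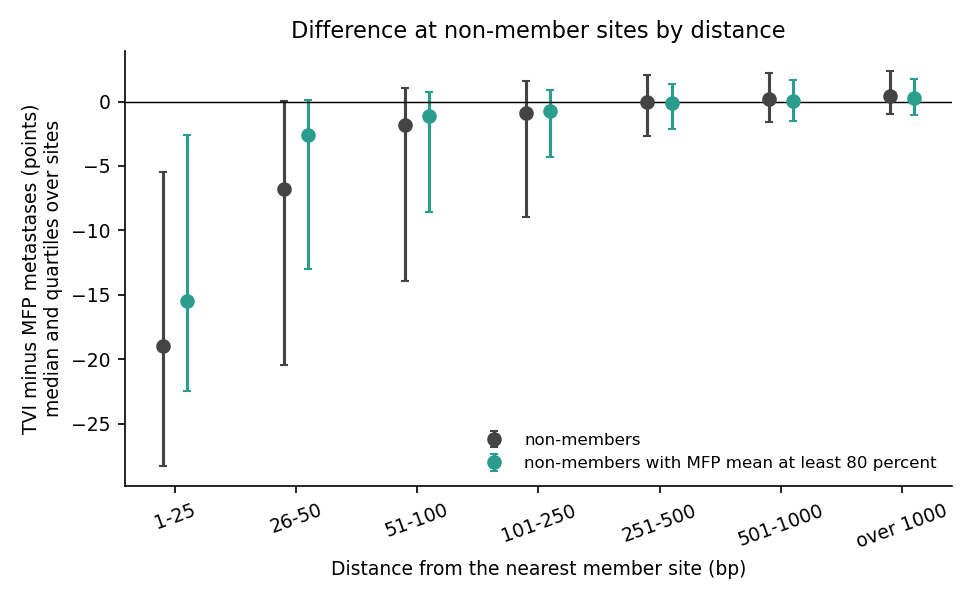
Mean of TVI metastases minus mean of MFP metastases (percentage points, vertical axis) at sites that are not members, by distance to the nearest member in bp (horizontal axis). Points are medians over sites and bars are quartiles, for all non-members (grey) and for those with an MFP mean of at least 80% (green). The grey medians go from -18.9 points at 1 to 25 bp to 0.449 points beyond 1000 bp.

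Sites with the opposite difference were counted around the members as well. A site higher in TVI metastases by the same gap lay within 500 bp of 114 members (11.7%) and of 11.5% of all highly methylated sites. When all sites were joined at 500 bp into 3316 regions, 388 regions held a member and 163 of these also held a gaining site, and of all 3316 regions 976 held a gaining site. Partly methylated sites lower in TVI metastases by the same gap (MFP mean from 20% to under 80%) numbered 1009. The mirror rule, a TVI mean of at least 80% with MFP metastases lower by the same gap, gave 1062 sites, 1.23% of those with a TVI mean of at least 80%.

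By chromosome, 195 members (20%) were on chromosome 8, 139 on chromosome 11, 114 on chromosome 2 and 98 on chromosome 1, of which 62 belonged to a single run. Chromosome 13 had 0 members among 147 highly methylated sites. The share of highly methylated sites that were members was 2.19% on chromosome 1, 1.82% on chromosome 8 and 0.931% on chromosome 11.

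The largest runs are shown per sample in the plot of run means. In each of the 10, all 3 TVI means were below all tumor and MFP means. This order is built in for the MFP metastases and partly for the tumors. TVI metastasis 1 was the highest of the 3 TVI samples in all 10, and TVI metastasis 2 was the lowest in 8. Over the 63 runs of at least 3 members, TVI metastasis 1 was highest in 60.

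**Figure D4:**
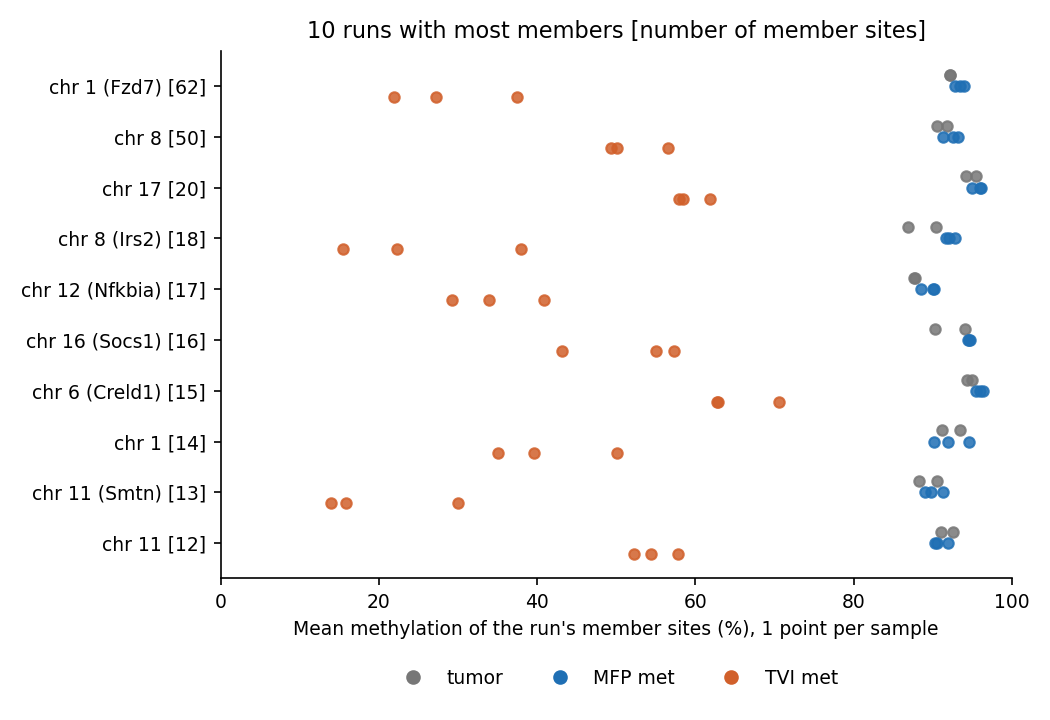
Mean methylation of the member sites (percent, horizontal axis) in the 10 runs with most members (vertical axis, with the placed gene where there is one and the number of member sites in brackets), 1 point per sample. Tumors and MFP metastases lie between 86.9% and 96.4% in every run shown, and the TVI means range from 19.9% in the run near Smtn to 65.4% in the run at Creld1.

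The run with most members lay downstream of the start of Fzd7, a Frizzled receptor for Wnt ligands. It held 62 members among 66 measured sites on chromosome 1 from 59540424 to 59541859, 1432 to 2867 bp after the placed start. Its mean was 92.2% in both tumors, 92.8%, 93.9% and 93.5% in the MFP metastases and 37.4%, 21.9% and 27.2% in the TVI metastases. The rule fixed that MFP and TVI values did not overlap at these sites. The MFP mean was 93.4% ± 0.6 (SD, n = 3) and the TVI mean was 28.8% ± 7.9 (SD, n = 3). Of the 10 members with the largest difference between MFP and TVI means, 8 were in this run. The largest was at 59540732, with 89.7% and 87.2% in the tumors, 100%, 92.9% and 95.5% in the MFP metastases and 10.2%, 4.92% and 10.4% in the TVI metastases, a difference of 87.6 points. At 59540430 it was 85.3 points, and there the tumors were at 96.0% and 97.9% and the TVI metastases at 17.9%, 5.32% and 12.2%. The other 6, at 59540920, 59540781, 59540761, 59540703, 59540771 and 59540707, had TVI means between 7.54% and 16.2%.

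The start of Fzd7 itself was unmethylated in all groups. Over the 28 sites in the first 500 bp after the start, the tumors had a mean level of 1.1%, the MFP metastases of 1.9% and the TVI metastases of 1.3%. From 1000 to 1499 bp the tumors and MFP metastases averaged 66.8% and 65.7%, whereas the TVI metastases were at 7.3%, and all 41 sites had all 3 TVI values below all MFP values (10.9% of all sites did). From 1500 to 1999 bp the means were 87.3%, 89.4% and 12.6%, and from 2000 to 2499 bp they were 96.3%, 96.6% and 43.6%. In TVI metastases the low stretch around the start was therefore longer, and the level stayed intermediate to the last step measured, 40.2% from 2500 to 2999 bp.

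Irs2, which encodes an adaptor of the insulin and IGF1 receptors, had a pair of large runs. The run of widest span, 1785 bp on chromosome 8 from 11002789 to 11004573, held 18 members among 26 sites, 4357 to 6141 bp after the start. Its means were 90.5% and 86.9% in the tumors, 92.1%, 91.6% and 92.8% in the MFP metastases and 37.9%, 15.4% and 22.3% in the TVI metastases. All 8 sites in its span that were not members were lower in TVI metastases as well. The second run, from 11005630 to 11006612, lay 2318 to 3300 bp after the start and held 11 members, with a TVI mean of 39.2% beside 89.9% in MFP metastases and 83.0% in tumors. The sites from 1000 bp before to 1499 bp after the start were at 0.54% to 2.07% in every group and 500-bp step. From 3500 to 3999 bp, where no site was a member, tumors and MFP metastases were only partly methylated, at 47.3% and 48.2%, and TVI metastases were at 10.9%.

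An unmethylated start with members beyond it was also seen at other genes, of which Nfkbia, Socs1, Snai1 and Map3k11 are described. Nfkbia encodes the NF-kappaB inhibitor I-kappa-B alpha. Its run on chromosome 12 from 56591306 to 56592132 held 17 members, 1503 to 2329 bp after the start. The tumors were at 87.7% and 87.8%, the MFP metastases at 90.2%, 90% and 88.5% and the TVI metastases at 40.9%, 29.2% and 33.9%. Its first 500 bp were at 0.91%, 1.0% and 1.4% in tumors, MFP and TVI metastases.

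Socs1 encodes a suppressor of cytokine signaling through JAK and STAT proteins. Its run on chromosome 16 from 10783716 to 10784416 held 16 members, 1214 to 1914 bp after the start. The tumors were at 90.3% and 94.1%, the MFP metastases at 94.7%, 94.4% and 94.6% and the TVI metastases at 57.3%, 43.1% and 55.1%. All 13 sites from 1000 to 1499 bp were members, and the 500 bp before the start were at 1.3% in tumors and 1.4% in TVI metastases. From 2000 to 3499 bp the 500-bp means of all groups were between 2.2% and 18%, so the members formed a methylated block between low flanks.

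Snai1 encodes a zinc-finger repressor that drives epithelial-mesenchymal transition. It had 8 members, 2145 to 3118 bp after its start, with 85.3% and 76.5% in the tumors, 86.7%, 86.7% and 85.4% in the MFP metastases and 41.6%, 29.8% and 34.9% in the TVI metastases. Both tumors lay below all 3 MFP metastases, tumor 2 by the wider margin. This order was not particular to Snai1. Of the 63 runs of at least 3 members, 29 had both tumor means below all MFP means, and 0 had both above. From 2000 to 2499 bp the tumors averaged 67.7% over all sites, the MFP metastases 78.1% and the TVI metastases 21.2%, and the first 500 bp were at 1.5%, 0.67% and 0.94%. Map3k11, a kinase upstream of JNK, was at 0.92% to 1.4% in every group over the first 1000 bp and had 9 members 1725 to 3069 bp after its start, with a TVI mean of 35.5% beside 89.9% in MFP metastases.

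**Figure D5:**
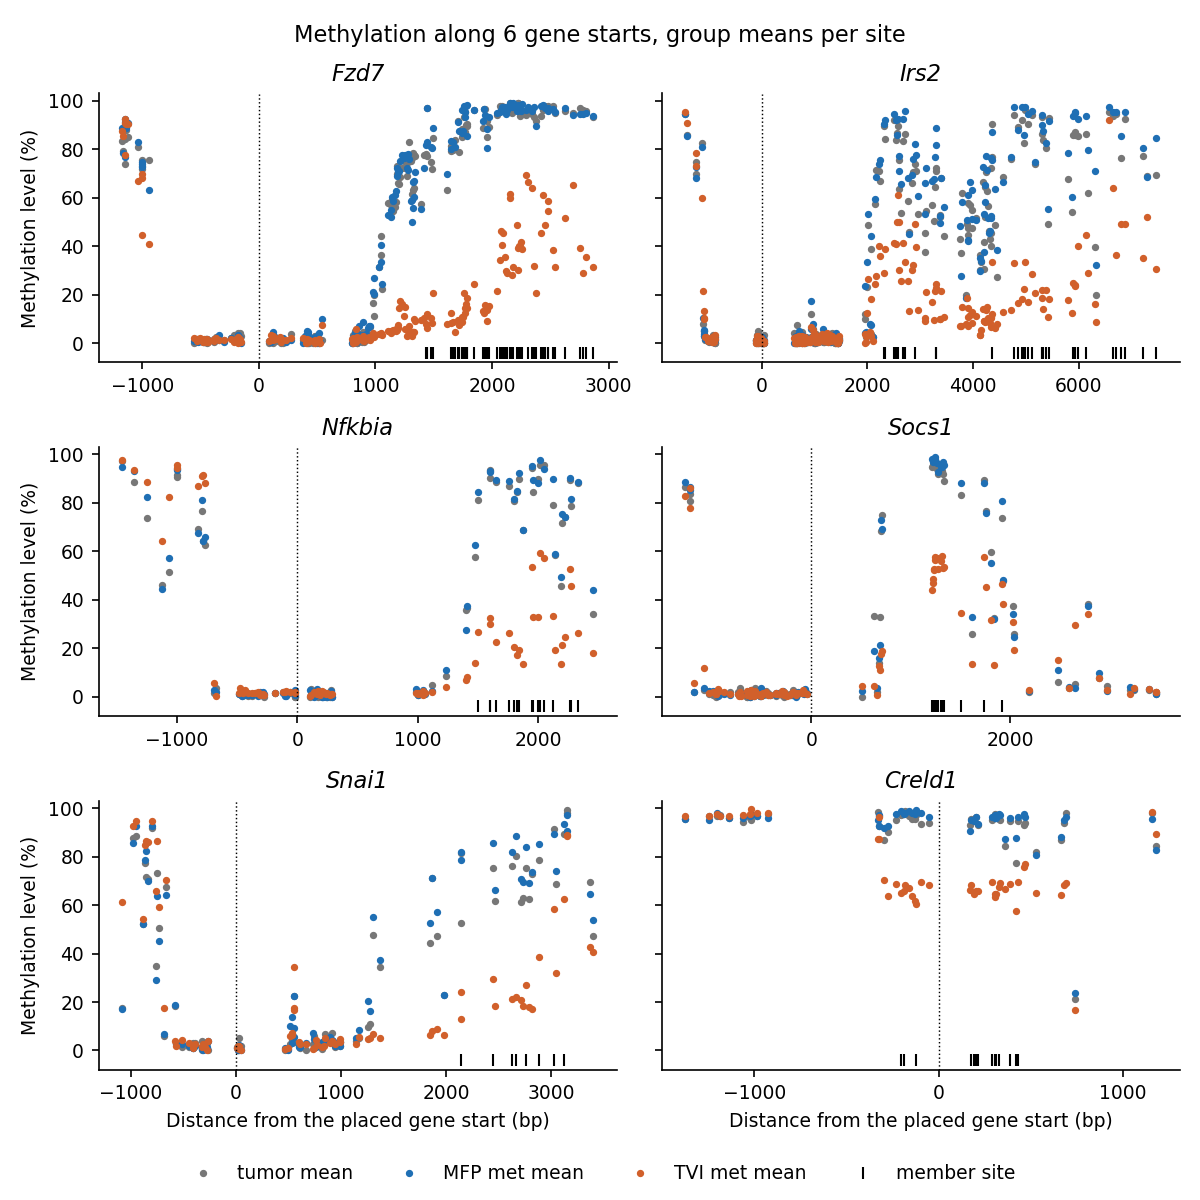
Mean methylation of every measured site (percent, vertical axis) by distance from the placed gene start in bp (horizontal axis, dotted line at the start) for 6 genes, in tumors (grey), MFP metastases (blue) and TVI metastases (orange). Black ticks mark members. At Fzd7, Irs2, Nfkbia, Socs1 and Snai1 the start is near 0 in all groups and the members lie beyond it, whereas Creld1 is methylated across its start.

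At Creld1, Cldn7 and Rasgrp2 the members lay at the start itself, in the sequences printed above. The Creld1 run, on chromosome 6 from 113433148 to 113433785, held 15 members from 203 bp before to 434 bp after the start. Its means were 94.3% and 94.9% in the tumors, 96.0%, 95.5% and 96.4% in the MFP metastases and 70.6%, 62.9% and 62.7% in the TVI metastases. The 9 other sites in its span were lower in TVI metastases too. From 1000 to 501 bp before the start the groups were alike, at 97.2%, 96.3% and 98.2%.

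The 8 Cldn7 members, from 89 bp before to 573 bp after the start on chromosome 11, averaged 96.5% and 95% in the tumors, 95.8%, 94.8% and 96.5% in the MFP metastases and 48.0%, 42.6% and 42.5% in the TVI metastases. The member 23 bp before the start had the lowest TVI values, 27.5%, 23.3% and 26.6%, beside 100% in both tumors and 100%, 94.0% and 97.7% in the MFP metastases. The TVI level was higher further on, at 78.2% over the 19 sites of the first 500 bp after the start. The 10 Rasgrp2 members, from 202 bp before to 153 bp after the start on chromosome 19, averaged 88.2% and 89.1% in the tumors, 87.0%, 90.8% and 90.6% in the MFP metastases and 60.5%, 51.6% and 51.7% in the TVI metastases. From 500 to 999 bp after that start the TVI metastases were higher, 79.5% against 65.9% in MFP metastases, with no member among 10 sites.

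Other genes had members before the start or further from it. Ephb4, a receptor for ephrin-B2, had its 11 members 936 to 572 bp before its start, in a run on chromosome 5 from 137790402 to 137790766 that also lies after the start of Gm52791. The TVI values were 51%, 45.6% and 42.1% beside MFP values of 92.0%, 92.5% and 90.9% and tumor values of 92.2% and 92.5%. Pfkfb3, whose product makes the glycolytic activator fructose-2,6-bisphosphate, had 10 members 1039 to 861 bp before its start, with a TVI mean of 63.6% beside 96.6% in MFP metastases and 96.0% in tumors. Bcar1, a focal adhesion adaptor, had 8 members 1536 to 4395 bp after a placed start, with a TVI mean of 50.5% and an MFP mean of 88.8%. In the 500-bp steps around another placed start of Bcar1 no site was a member. Grin1os had 9 members before its start. The tumors (84.3% and 87.0%) were below the MFP metastases (94.3%, 93.5% and 91.8%), an order seen in 29 of the 63 runs of at least 3 members.

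The run on chromosome 11 from 3435786 to 3436085 had the lowest TVI mean of the 10 largest. It held 13 members among 14 sites, 3211 to 3510 bp after the start of Smtn, a smooth muscle cytoskeletal protein, and 3004 bp or more after a start of Gm11946. The tumors were at 90.6% and 88.2%, the MFP metastases at 91.3%, 89.8% and 89% and the TVI metastases at 30%, 13.9% and 15.9%. Its first site, 3435786, had a difference of 81.6 points. At Smtn the 3 sites from 2500 to 2999 bp after the start were at 91.3% in MFP and 90.8% in TVI metastases, so that the lower stretch began after a methylated one.

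Other large runs could not be placed next to a gene. The run on chromosome 8 from 24521394 to 24522837 held 50 members among 71 sites, with 90.5% and 91.8% in the tumors, 91.3%, 92.6% and 93.2% in the MFP metastases and 56.5%, 50.2% and 49.3% in the TVI metastases. Within 1000 bp on either side of it the TVI metastases were higher instead, with median levels of 84.6% before and 87.1% after it beside 71.7% and 74.3% in MFP metastases. The run on chromosome 17 from 56601516 to 56602433 held 20 members and had TVI values of 61.9%, 58.0% and 58.4% beside an MFP mean of 95.7%. A run of 14 on chromosome 1 from 82286772 to 82287235 had TVI values of 50.1%, 35.1% and 39.7%, and a run of 12 on chromosome 11 from 53586840 to 53588051 had 57.8%, 52.3% and 54.4%. The MFP means of these were 92.2% and 91.0%. On chromosome 2 the site 117938879 had the largest difference of any member not placed near a gene, 82.3 points, with tumors at 80.6% and 75%, MFP metastases at 88.5%, 96.4% and 96.2% and TVI metastases at 20.5%, 2.94% and 10.8%.

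A pair of shorter runs mark the limits of the pattern. The run on chromosome 15 from 78993572 to 78994028 had most non-members, 30 sites around 2 members, and their median was 95.6% in MFP and 90% in TVI metastases. The run on chromosome 15 from 77646407 to 77646979 had the lowest tumors relative to MFP metastases among runs of at least 3 members. It was picked for this, so tumors below the MFP metastases follow from the choice. Its 5 members averaged 73.9% and 65.4% in the tumors, 83.3%, 86.7% and 83.3% in the MFP metastases and 47.6%, 40.6% and 46.6% in the TVI metastases. The tumors were thus intermediate there and overlapped neither metastasis group.

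Over all placed genes, 362 members (37.1%) lay within 5000 bp of one of the placed starts, of 98 genes, compared with 12% of all highly methylated sites. Within 1000 bp there were 132 members (13.5%), compared with 2.56% of highly methylated sites. A start could be placed only where at least 5 measured sites lay in its 300-base window. Members also lay where measured sites were denser, with a median of 11 other sites within 250 bp against 8. The part of this density in the higher shares near placed starts was not tested. Of the 362, 62 belonged to Fzd7, 283 lay after their start and 79 before it. The TVI median was 55.7% for the 82 members in the first 1000 bp after a start, 45.7% for 99 members at 1000 to 1999 bp, 39.7% for 71 at 2000 to 2999 bp and 24.4% for 31 at 3000 to 5000 bp. These bins are filled by few genes, 11 for the third and 12 for the last, and Fzd7 alone gave 28 members from 2000 to 2499 bp and 7 from 2500 to 2999 bp. Members inside a promoter window, from 250 bp before to 50 bp after a start, numbered 22, in 11 windows.

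Gene groups could be followed only where a start was placed, for 302 of 26794 genes. Of these 302, 98 were the nearest placed gene of a member within 5000 bp, the share against which the counts below stand. The lists were chosen with earlier results of these data known, and few genes of each were placed, so nothing is read from these counts. Of 26 Wnt pathway genes, Fzd1 and Fzd7 were placed, and Fzd7 had members. Of 12 cytokine response genes, Socs1 and Nfkbia were placed, and both had members. Of 12 genes of epithelial-mesenchymal transition, Snai1 was placed, with its 8 members. Of 10 Notch genes, Notch1, Jag1 and Dll4 were placed, with 0 members. Of 13 TGF-beta genes and 9 genes of the DNA methylation machinery, 0 were placed. The same holds for all marker genes of lung epithelium, leukocytes, endothelium, fibroblasts and mammary epithelium, so that the tissue labels could not be checked here and a difference in the share of lung or immune cells between the metastasis groups was not tested.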

How the data were processed

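Bisulfite-converted genomic DNA of 2 primary tumors, 3 MFP lung metastases and 3 TVI lung metastases was sequenced. Trimmomatic, Bismark and the build mm10 are named in the submitters' processing notes. For settings, versions and any coverage filter, the sources used here give nothing. The authors deposited 1 table of beta values, the methylated fraction of calls per site, per the file headers. It had no counts, so depth is unknown. Replicate numbers were not treated as pairs.

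Members were counted by the rule. limma 3.58.1 (R 4.3.3) was fitted to the fractions of all 8 samples, with 1 mean per group, a variance trend, two-sided moderated tests and Benjamini-Hochberg adjustment (threshold 0.05), and was tested on simulated data. Members within 500 bp were joined into runs. Named were the 10 members with the largest difference, those at the limits of the rule, the 5 with the lowest tumor mean, the 10 runs with most members, and the runs of widest span and with most non-members. Genes with at least 8 members and the runs of lowest tumor level were named after their values were seen. The members and gene lists were chosen with earlier results of these data known.

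The deposited positions do not follow GRCm38 numbering on most chromosomes, although the notes name mm10. After this was seen, the 300-base RefSeq promoter windows of GRCm38.p6 (250 bases before and 50 after the start) were placed by spacing. A window was accepted where all deposited sites inside it fell on its CpG, with at least 5 matched and a chance limit of 1e-06, or where its shift lay within 50 bp of an accepted shift nearby. This placed 340 of 32619 windows. Windows set against positions of other chromosomes gave at most 2 matches in 6 checks. Exons, introns and untranslated regions were not assigned. Alternatives were other gaps and means, quantile normalization, a logit2 scale, no variance trend, an SD filter, fewer groups, a replicate block, other windows and leaving out each sample.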

Additional observations from a re-analysis of the deposited data

How the results depend on the processing

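The number of members, 976, was 578 with a mean of at least 90%, 2111, 465 and 227 with gaps of 10, 30 and 40 points, 1593 with a gap of 20 points between group means, and 1015 to 1246 with 1 metastasis left out. The tumor median, 89.8%, was 90.9% after quantile normalization and 89.1% at a gap of 40 points. Outside the 10 largest runs the tumor and MFP medians were 88.8% and 90.9%. The share of members with a TVI mean of 35% to 65%, 71.3%, was 46.1%, 62.4% and 29.1% at gaps of 10, 30 and 40 points, 74.4% after quantile normalization and 49.3% for limits of 40% and 60%. The share with another member nearby, 62.6%, was 54.8% within 100 bp and 66.8% within 500 bp, and the median density, 11, was 4 and 19. Neighbors lower in TVI metastases, 53.8% within 1000 bp, were 55.4% when themselves highly methylated.

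Sites called by limma between MFP metastases and tumors, 63, were 28 after quantile normalization, 3 on the logit2 scale, 155 with no variance trend, 563 with the SD filter, 0 with only the compared groups, 0 with the replicate block and 0 to 18 with 1 sample left out, and the cause was not tested. Members called there, 0, were 2 with no variance trend and 6 with the SD filter. Same-numbered MFP and TVI metastases did not deviate together over the sites (correlations of -0.0037, -0.00091 and 0.0085). Such values cannot show whether same-numbered samples share an animal or a batch, and no label pairs them. With the replicate block 965 members were called lower in TVI metastases than in tumors, against 969. Quantile normalization moved the sites called higher and lower in TVI than in MFP metastases from 14120 and 8881 to 11542 and 11017, against tumors from 15428 and 7124 to 10073 and 9688, and between MFP metastases and tumors from 58 and 5 to 21 and 7. Depth is unknown, so single-site values carry an error that only the replicates show.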
